A study of Homo sapiens with 8 samples.

Results

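The genes described here code for mesenchymal markers, extracellular matrix proteins, integrins and the transforming growth factor beta (TGF-β) signals linked to them, in ESO26, an established human cell line labelled as oesophageal adenocarcinoma. They are a list of 36 genes chosen by name, of which 33 were measured among the 30755 genes of the RNA-seq table. SNAI2, TWIST1 and CDH2 were not analysed here. Of the 8 samples of the series, 4 are used: 2 RNA-seq libraries of cells labelled HNF4A knockdown (siHNF4A 1 and 2) and 2 of control cells (control 1 and 2). Both groups were grown in RPMI-1640 medium with serum and antibiotics, and the labels name no other genetic change or agent in either. The control treatment, the siRNA sequence and the time after transfection are not given in the sources used here.

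HNF4A is a nuclear receptor that drives epithelial genes of liver and intestine. Epithelial-mesenchymal transition is a program in which factors of the SNAI, ZEB and TWIST families repress E-cadherin and other epithelial genes, while vimentin, N-cadherin and fibronectin rise. TGF-β is its best-known inducer. Integrins are receptors of an α and a β chain that bind the cell to its matrix, and epithelial cells rest on a basement membrane of laminin trimers and type IV collagen. The comparison asks whether lower HNF4A brings mesenchymal expression in these adenocarcinoma cells.

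Most of these genes did not pass the test. Of the 33 measured genes, 29 had a mean of at least 10 normalized counts and were tested, and 6 passed the threshold: COL4A1, CD44, LAMB1 and LAMB3 rose, and ITGB5 and COL4A2 fell. That is 20.7% of those tested, against 14.1% of all 15577 tested genes. By direction, 4 rose (6.02% of all tested genes rose) and 2 fell (8.11% of all tested genes fell). The median log2 fold change was 0.041 over the tested members and -0.0073 over all tested genes. The classical markers VIM, SNAI1, ZEB1 and FN1 were not among those that passed. Of the 6 calls, ITGB5 alone was kept when genes with low values were not filtered out, and 0 were kept in limma without the variance trend, a setting that called 0 of all genes at an adjusted p under 0.05 and 3524 at an unadjusted p under 0.05. Of the genes named below that are not members, 12 lost their call without the filter (adjusted p from 0.0572 to 0.179 in limma). They were TNC, LTBP1, LTBP4, SMURF1, SKIL, TGIF1, ADAM17, FERMT1, PARVA, ESRP1, KRT19 and GRHL2. OVOL1, CLDN4 and CLDN7 were left out of this count.

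Calls are adjusted p-values under 0.05 in limma on log2(normalized count + 1), adjusted by the Benjamini-Hochberg method over all tested genes. On this scale the fold changes of low genes come out too small. For a single gene, 2 libraries against 2 allow no exact two-sided permutation p below 0.333, so each call rests on variances that limma shares across genes. Nothing in the labels says that the libraries came from separate cultures, so the p-values measure only the spread between these libraries, which may be technical. In such bulk RNA, fewer cells of a type and less RNA per cell cannot be told apart. Normalized counts are not per gene length, so levels are not compared between genes.

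The targeted gene and the identity of the cells were checked first. HNF4A had 4129 and 3937 normalized counts in control cells and 1139.8 and 932 in the knockdown, which is 25.7% of the control mean, with a log2 fold change of -1.97 ± 0.0952 (standard error) and an adjusted p of 1.59e-05 in limma. The columnar markers EPCAM, CDH1, KRT8, KRT18 and KRT19 were present in every library, with at least 4296 normalized counts each. Of the other keratins of columnar epithelium on the epithelial list, KRT20 lay between 637 and 748 and KRT7 between 15.1 and 28.6. Both are outside the rule for named genes. The 6 measured fibroblast markers (DCN, PDGFRA, PDGFRB, THY1, FAP and ACTA2) summed to 33.6 and 30.9 normalized counts in the controls, against 42.5 and 38.6 in the knockdown, with THY1 at 0 in 3 of the 4 libraries. Both knockdown sums were higher, and their part in the members' values was not tested. The libraries summed to between 17912507 and 18613685 normalized counts. The most frequent low value of each library gives an approximate depth, relative to control 1, of 1.09 for control 2, 1.36 for siHNF4A 1 and 1.21 for siHNF4A 2, and the absolute depth is unknown.

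Sequences of 3 promoters are shown for genes that share a promoter or a partner chain, so that their values can be set side by side. COL4A1 and COL4A2 are transcribed in opposite directions from start sites that enclose 126 bases, so the first sequence is the promoter of both. ITGB5 had the strongest fall among the members, and ITGB6 encodes another β chain of the same αV partner. Sequences are RefSeq's (GRCh38.p14) at each gene's first listed start site, and any other start sites of these genes are not shown. They run 5′ to 3′ on the strand given, with the GC box GGGCGG and the CCAAT box CCAAT in capitals on either strand.
COL4A1-COL4A2 promoter, chr13:110307158-110307283, + strand (COL4A2): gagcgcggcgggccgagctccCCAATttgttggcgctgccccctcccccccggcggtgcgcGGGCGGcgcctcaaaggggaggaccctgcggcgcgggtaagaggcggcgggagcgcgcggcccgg
ITGB5 promoter, chr3:124901419-124901668, - strand: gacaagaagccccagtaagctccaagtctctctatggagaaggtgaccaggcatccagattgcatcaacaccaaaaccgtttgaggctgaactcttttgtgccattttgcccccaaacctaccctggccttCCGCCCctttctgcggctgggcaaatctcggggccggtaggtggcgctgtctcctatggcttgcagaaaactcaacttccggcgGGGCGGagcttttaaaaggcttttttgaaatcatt
ITGB6 promoter, chr2:160200273-160200522, - strand: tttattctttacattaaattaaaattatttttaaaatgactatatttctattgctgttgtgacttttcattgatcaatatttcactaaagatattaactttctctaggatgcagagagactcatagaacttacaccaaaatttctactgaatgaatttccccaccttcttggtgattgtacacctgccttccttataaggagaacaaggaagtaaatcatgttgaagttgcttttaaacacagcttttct
The stretch shared by the collagen genes holds 1 GC box and 1 CCAAT box and is 80.2% G or C. The ITGB5 promoter holds 2 GC boxes, at 52.8% G or C. The ITGB6 promoter holds neither motif and is 30% G or C, against a median of 58% over the 250 bases upstream of 34943 RefSeq start sites. Over those start sites, 42.5% hold a GC box and 32% a CCAAT box in 250 bases, and 34.5% and 21.1% in 126 bases. The HNF4 element CAAAGTCCA is in none of the 3. It is also in none of the 28 members' promoters found in RefSeq, read at each gene's first listed start site only. Over all 34943 start sites it is in 0.326% of the stretches of 250 bases, on either strand. These are matches of letters and no sites of binding.

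**Figure D1:**
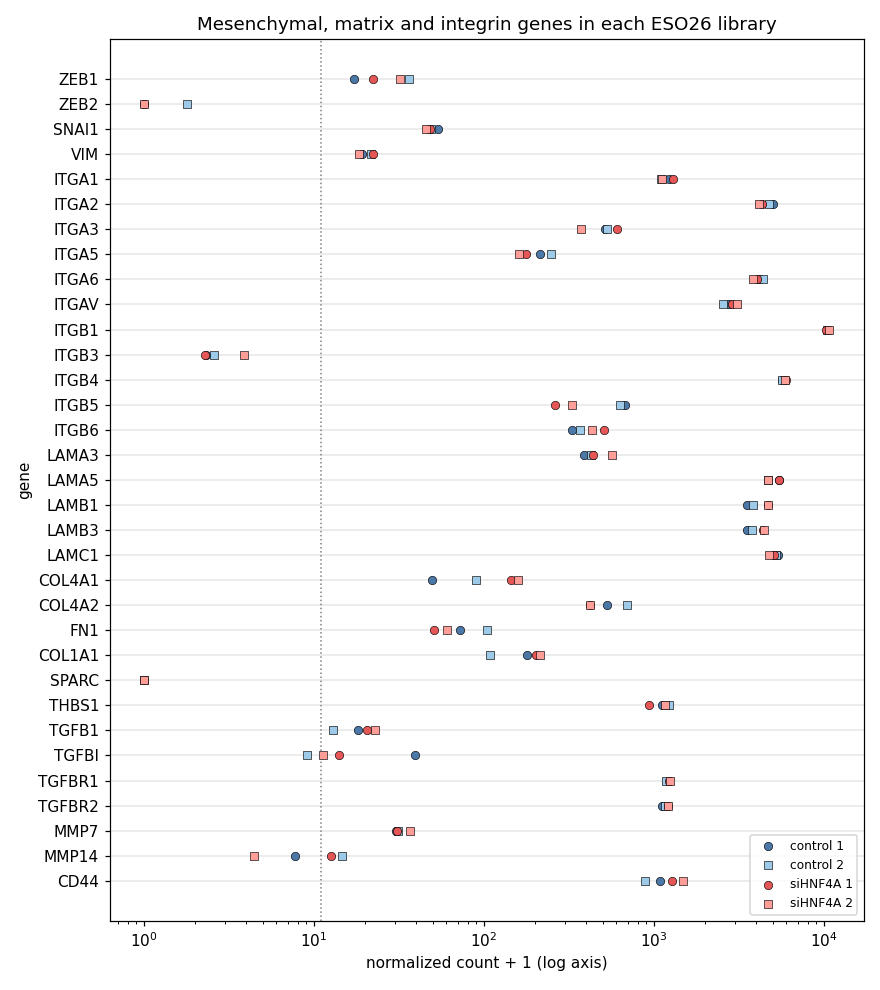
Normalized count + 1 on a log axis for each of the 33 measured genes, with 1 point per library (blue, controls; red, knockdown; circle, replicate 1; square, replicate 2). The dotted line marks a normalized count of 10, the mean needed for testing; SPARC lies at 0 in all 4 libraries and the libraries of most genes lie close together.

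The transcription factors of epithelial-mesenchymal transition were low and did not pass the test. SNAI1, the factor Snail, had 52.5 and 47.7 normalized counts in the controls, against 46.8 and 44.6 in the knockdown, a log2 fold change of -0.13 with a 95% interval from -0.72 to 0.46. Both knockdown values lay below both controls but the interval takes in 0. ZEB1, a repressor of E-cadherin, had 16.2 and 35.2 in control cells and 21.1 and 30.8 in the knockdown, so that the groups overlapped. Its log2 fold change was 0.086 with an interval from -0.89 to 1.06, and -0.027 after quantile normalization. ZEB2 was listed at 0 in 3 libraries and at 0.796 in control 2 and was not tested.

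Vimentin, the intermediate filament of mesenchymal cells, was low in all 4 libraries. VIM had 18.1 and 20.5 normalized counts in the controls, against 21.2 and 17.4 in the knockdown. The groups overlapped, and the log2 fold change was -0.0043 with a 95% interval from -0.87 to 0.86, which leaves room for changes up to that size in either direction. In limma 0 of the 3 tested genes among these factors and VIM passed, and at an unadjusted p under 0.05 there were 0 as well. Over all tested genes the shares were 14.1% and 28.9%, so a count of 0 among 3 genes is near the background. VIM and ZEB1 each overlap an antisense gene in RefSeq, and strand use in the counting is not given in the sources used here.

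Of 10 further factors linked to this transition, 6 were tested and 1 passed (16.7%, against 14.1% of all tested genes; median log2 fold change 0.039). TCF3, which encodes the E2A proteins, had 1406 and 1603 normalized counts in control cells and 2109.6 and 2176 in the knockdown. It rose by a log2 fold change of 0.51 ± 0.0824 (standard error) with an adjusted p of 0.00373 in limma. TCF4, the E2-2 gene, was named here after its values were seen: it passed the filter through control 2 alone, with 94.6 normalized counts there and at most 5.19 in the other libraries. Over the 5 tested factors left without TCF4, a choice made after seeing the data, the median was 0.217.

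The α chains of the integrins did not pass the test as single genes. In limma 0 of the 6 passed, against 14.1% of all tested genes, so a count of 0 among 6 is near the background. Of the 6, 2 had an unadjusted p under 0.05, as did 28.9% of all tested genes. ITGA2, the collagen-binding α2 chain, had 5004 and 4738 normalized counts in the controls, against 4328 and 4164 in the knockdown. Both knockdown libraries lay lower, with a log2 fold change of -0.20 ± 0.061 (standard error) and an adjusted p of 0.0588 in limma. It passed when the filter was raised to a mean of 50 (0.0439) and without control 2 (0.0485), in a range from 0.0439 to 0.279. ITGA5, the α5 chain of the fibronectin receptor, had 211 and 245 in control cells and 176 and 159.9 in the knockdown, again without overlap, at an adjusted p of 0.0985 in limma. ITGA6, the laminin-binding α6 chain, had 4210.3 and 4378 in the controls, against 4008 and 3799 in the knockdown (adjusted p of 0.175 in limma). ITGAV, the αV chain, had 2753 and 2552 in control cells and 2857 and 3061 in the knockdown, the α chain whose 2 knockdown values both lay above both controls.

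For the other α chains the groups overlapped. ITGA1, a collagen receptor chain, ranged from 1091 to 1291 normalized counts over the 4 libraries. ITGA3, a laminin receptor chain, had 514 and 526 in the controls, against 604 and 369 in the knockdown, so that its knockdown libraries lay on either side of the controls. The log2 fold change of ITGA3 was -0.49 without siHNF4A 1 and 0.22 without siHNF4A 2. ITGA1 overlaps PELO in RefSeq.

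Among the 4 tested β chains of the members, ITGB5 fell and ITGB1, ITGB4 and ITGB6 did not pass. ITGB5, whose product pairs with αV as a vitronectin receptor, had 669.7 and 626 normalized counts in control cells and 259.7 and 328 in the knockdown. Both knockdown libraries lay well below the controls, at 45.4% of the control mean. This was a log2 fold change of -1.15 ± 0.134 (standard error, n = 2 per group) with a 95% interval from -1.45 to -0.85 and an adjusted p of 0.000747 in limma. The value lay between -1.31 and -0.98 in the fits that left out 1 library, and each of these fits called it. ITGB5 overlaps the pseudogene ENO1P3 in RefSeq.

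Of the other chains that pair with αV, ITGB8 rose and ITGB6 did not pass. ITGB6, the epithelial β6 chain whose pair with αV activates TGF-β, had 328 and 364 normalized counts in the controls, against 508 and 429 in the knockdown. The groups did not overlap, and the log2 fold change of 0.43 ± 0.128 (standard error) had an adjusted p of 0.051 in limma, just outside the threshold. The nearest member inside it was COL4A2, at 0.0283. ITGB6 passed under 5 of the 12 alternatives, with adjusted p-values from 0.0335 to 0.293 in limma over all of them. ITGB8, not a member, encodes another αV partner and rose from 1609.9 and 1438 to 2112 and 2287, a log2 fold change of 0.53 ± 0.0827 (standard error) with an adjusted p of 0.00321 in limma. ITGB3 was at 1.27 to 2.85 normalized counts and was not tested.

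Ratios within each library need no scaling between libraries. The ratio of ITGB6 to ITGB5 was 0.49 and 0.582 in control cells and 1.96 and 1.31 in the knockdown. The ratio of ITGB8 to ITGB5 was 2.4 and 2.3 in the controls, against 8.13 and 6.97 in the knockdown. Both ratios were about 3 times higher in the knockdown (3.05 and 3.21), and neither overlapped between the groups. The ratio of ITGB5 to ITGAV itself was 0.243 and 0.245 in the controls, against 0.0909 and 0.107 after knockdown. Set against ITGAV in place of ITGB5, ITGB6 was at 0.119 and 0.143 in the controls, against 0.178 and 0.14 after knockdown, so the groups overlapped. ITGB8 to ITGAV was 0.585 and 0.564 in the controls, against 0.739 and 0.747 after knockdown. These ratios reflect gene length as well as level, so only their change between libraries can be read, and the ratios to ITGB5 carry its fall.

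The β chains of the main epithelial receptors did not pass, and their intervals are narrow. ITGB1, the common partner of many α chains, had 10429 and 10402 normalized counts in control cells and 10342 and 10735 in the knockdown, with a 95% interval of the log2 fold change from -0.098 to 0.13. ITGB4, the hemidesmosome chain that pairs with α6, had 5665 and 5669 in the controls, against 5943 and 5878 in the knockdown, with an interval from -0.062 to 0.18. The sign of ITGB1 turned without siHNF4A 2, at -0.01. Of 15 integrin genes that are not members, 6 were tested and 1, ITGB8, was called (16.7%, against 14.1% of all tested genes). Their median log2 fold change was 0.248, and 0.165 over the 5 left without ITGAX, a choice made after seeing the data. ITGAX passed the filter through siHNF4A 2 alone, with 34.6 normalized counts there and at most 4.3 in the other libraries.

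**Figure D2:**
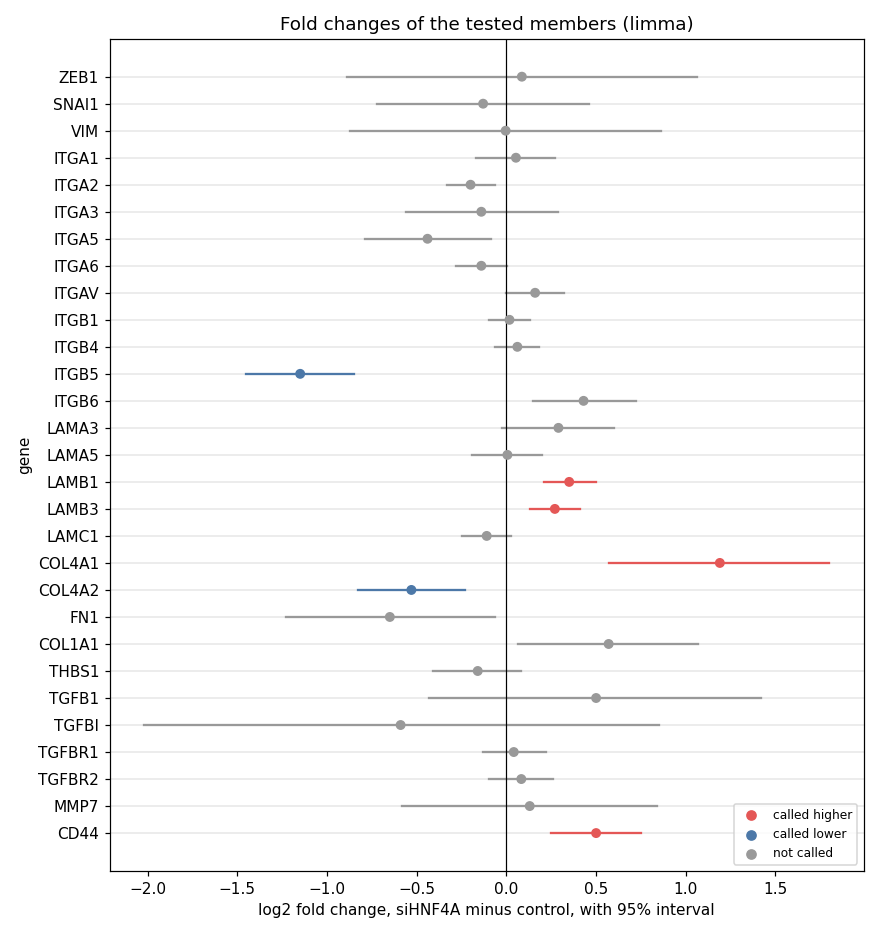
Log2 fold change (siHNF4A minus control, x axis) with its 95% interval for the 29 tested members, ordered by role. Red points were called higher, blue lower and grey not called; ITGB5 lies at -1.15 and COL4A1 at 1.19, and the interval of VIM spans -0.87 to 0.86.

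Of the laminin chains among the members, LAMB1 and LAMB3 rose. LAMB1, the β1 chain that joins the α5 and γ1 chains in a trimer common to most epithelia, had 3511 and 3830.5 normalized counts in control cells and 4703 and 4659.7 in the knockdown. LAMB1 rose by a log2 fold change of 0.35 ± 0.0646 (standard error) with an adjusted p of 0.00678 in limma. Each fit that left out 1 library called it. LAMB3, the β3 chain of the hemidesmosomal laminin, had 3513 and 3766 in the controls, against 4374 and 4405 in the knockdown. LAMB3 rose by 0.27 ± 0.0627 (log2, standard error) with an adjusted p of 0.0188 in limma. The LAMB3 call ended without control 1 (0.0585), without siHNF4A 1 (0.0882) and without siHNF4A 2 (0.102), within a range of adjusted p from 0.00757 to 0.198 over its alternatives. LAMB2, another β chain, not a member and named after its values were seen, had 862 and 803 in control cells and 858 and 844 in the knockdown, with overlap (adjusted p of 0.845 in limma).

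The other 3 laminin chains among the members did not pass. LAMC1, the γ1 chain, had 5375 and 5185 normalized counts in control cells and 5073 and 4721 in the knockdown, both lower, with an adjusted p of 0.277 in limma. The ratio of LAMB1 to LAMC1 was 0.653 and 0.739 in the controls, against 0.927 and 0.987 in the knockdown, whereas that of LAMB3 to LAMA3 was 9.1 and 8.88 in the controls, against 10.1 and 7.83 in the knockdown, with overlap. LAMA5, the α5 chain, had 5409.8 and 4682 in control cells and 5429.9 and 4701 in the knockdown, with an interval from -0.19 to 0.20. LAMA3, the α3 chain of the hemidesmosomal trimer, had 386 and 424 in the controls, against 435 and 563 in the knockdown, higher in both but with an adjusted p of 0.206 in limma.

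The type IV collagen genes moved in opposite directions. COL4A1, the α1 chain of the basement membrane network, had 48.1 and 88.4 normalized counts in control cells and 143 and 157 in the knockdown, 220% of the control mean. Its log2 fold change was 1.19 ± 0.276 (standard error) with a 95% interval from 0.57 to 1.80 and an adjusted p of 0.0195 in limma. COL4A2, the α2 chain that joins α1 in the same trimer, had 529 and 691 in the controls, against 417 and 419.6 in the knockdown, 68.6% of the control mean. Its log2 fold change was -0.53 ± 0.134 (standard error) with an adjusted p of 0.0283 in limma. Neither gene overlapped between the groups. Their RefSeq start sites enclose the 126-base stretch shown above, and which start sites these cells use was not measured.

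The ratio of COL4A1 to COL4A2 was 0.091 and 0.128 in control cells and 0.343 and 0.373 in the knockdown, 3.27 times higher. Control 1 was the lower control for both genes. The COL4A1 call ended without either knockdown library (adjusted p of 0.0685 and 0.102 in limma, in a range from 0.000171 to 0.174), and its log2 fold change was 1.62 without control 2 and 0.75 without control 1. The COL4A2 call ended without control 2 (0.138), without siHNF4A 1 (0.0976) and without siHNF4A 2 (0.0955), in a range from 0.000837 to 0.19. COL4A2 overlaps the antisense genes COL4A2-AS1 and COL4A2-AS2 in RefSeq, and reads from these could not be told apart if the counting ignored the strand.

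Of 18 further basement membrane genes 12 were tested and 0 passed in limma (14.1% of all tested genes did), while 1 had an unadjusted p under 0.05, against 28.9% of all tested genes (median log2 fold change -0.010). That gene was COL18A1, a collagen of basement membranes, named here after its values were seen. It had 171 and 177 normalized counts in the controls, against 135 and 108 in the knockdown, with an adjusted p of 0.0881 in limma.

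**Figure D3:**
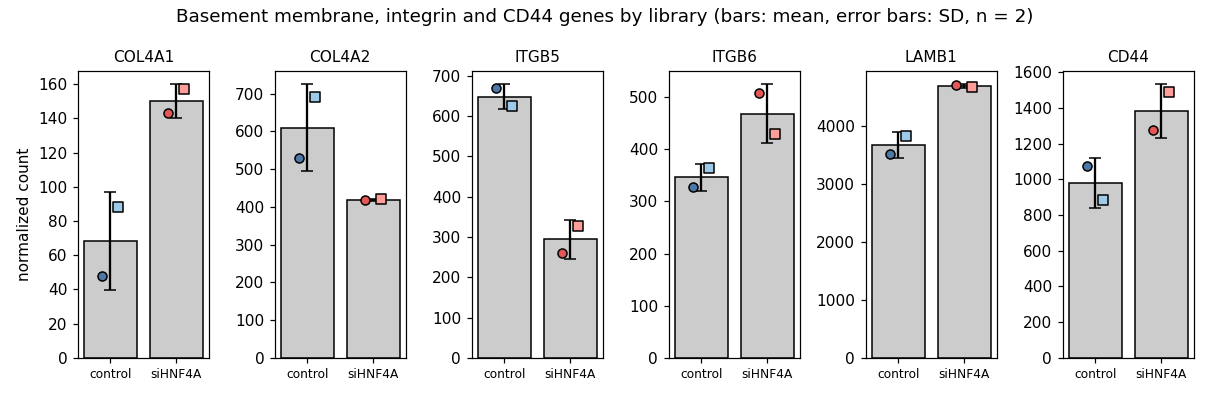
Normalized counts of COL4A1, COL4A2, ITGB5, ITGB6, LAMB1 and CD44 in the control (blue) and knockdown (red) libraries, each on its own linear axis from 0. Bars are means and error bars SD over 2 libraries; COL4A1 is higher and COL4A2 lower in both knockdown libraries, and ITGB5 and ITGB6 are separated in opposite directions.

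Interstitial and matricellular genes gave no call. In limma 0 of 3 tested genes passed, against 14.1% of all tested genes, so a count of 0 among 3 is near the background. Of the 3, 2 had an unadjusted p under 0.05, as did 28.9% of all tested genes. FN1, which encodes fibronectin and rises in mesenchymal transition, had 71.5 and 103 normalized counts in control cells and 49.6 and 59.9 in the knockdown. Both knockdown libraries lay below the controls, with a log2 fold change of -0.65 ± 0.261 (standard error) and an adjusted p of 0.136 in limma. COL1A1, the α1 chain of fibrillar type I collagen, had 179 and 108 in the controls, against 202 and 212 in the knockdown, both higher, with an adjusted p of 0.128 in limma.

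Each of these genes passed when control 1 was left out. The log2 fold change of FN1 was -0.91 without control 1 and -0.38 without control 2. That of COL1A1 was 0.93 without control 1 and 0.21 without control 2. THBS1, the matricellular thrombospondin that can activate latent TGF-β, had 1113 and 1231 in control cells and 939 and 1162 in the knockdown, with overlap. SPARC, a collagen-binding matrix protein of mesenchymal cells, was listed at 0 in all 4 libraries. COL1A2, the partner chain of COL1A1, not a member and singled out after its values were seen, lay at 3.04 to 4.89 normalized counts and was not tested.

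Of 16 further interstitial matrix genes 7 were tested and 1 passed (14.3%, against 14.1% of all tested genes; median log2 fold change 0.323). TNC, the matrix glycoprotein tenascin-C, had 287 and 285 normalized counts in the controls, against 410.0 and 479 in the knockdown. It rose by a log2 fold change of 0.63 ± 0.127 (standard error) with an adjusted p of 0.0103 in limma. The call also ended without siHNF4A 2 (0.0901, range 0.00467 to 0.123).

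The TGF-β ligand, receptors and matrix target of the list did not pass. In limma 0 of 4 passed, and at an unadjusted p under 0.05 there were 0 as well, against 14.1% and 28.9% of all tested genes, so that 0 of 4 is also near the background. TGFB1, the ligand, had 17.2 and 12 normalized counts in control cells and 19.5 and 21.9 in the knockdown. Both knockdown values were higher, but the 95% interval of the log2 fold change ran from -0.43 to 1.42. TGFBR1, the signalling receptor kinase, had 1221 and 1178 in the controls, against 1229 and 1239 in the knockdown, with an interval from -0.13 to 0.22. TGFBR2, the ligand-binding receptor, had 1114 and 1166 in control cells and 1211 and 1203 in the knockdown, with an interval from -0.095 to 0.26.

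TGFBI, a secreted matrix protein induced by TGF-β, turned on 1 library. It had 38.3 normalized counts in control 1 and 8.12 in control 2, against 13 and 10.3 in the knockdown. Its log2 fold change was -0.59 with all libraries, 0.47 without control 1 and -1.64 without control 2, where it passed (adjusted p of 0.039 in limma, range 0.039 to 0.819).

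Of 20 further genes of the TGF-β and BMP pathway 19 were tested, and 5 passed: LTBP1 rose, and BAMBI, LTBP4, SMURF1 and SKIL fell (median log2 fold change -0.143). That is 26.3%, against 14.1% of all tested genes, of which 6.02% rose and 8.11% fell. BAMBI, a decoy receptor that dampens the signal, had 281 and 314 normalized counts in the controls, against 164 and 135 in the knockdown, 50.1% of the control mean (standard error of the log2 fold change 0.16; adjusted p of 0.00374 in limma). LTBP4, a latent TGF-β binding protein, had 50.4 and 65.5 in control cells and 16.1 and 24.1 in the knockdown, a log2 fold change of -1.50. SMURF1, a ubiquitin ligase that removes receptors and SMAD proteins, and SKIL, a repressor of SMAD transcription, fell by 0.35 and 0.52 on the log2 scale. LTBP1, which holds latent TGF-β in the matrix and falls outside the rule for named genes, had 372 and 291 in the controls, against 434 and 494 in the knockdown, with an adjusted p of 0.0489 in limma. Its call also ended after quantile normalization (0.0505), without control 2 (0.195), without siHNF4A 1 (0.0833) and without siHNF4A 2 (0.238), in a range from 0.00411 to 0.238. LTBP4 was no longer called without control 2 (0.0554) or siHNF4A 1 (0.0919; range 0.00698 to 0.12). SKIL was no longer called without control 1 (0.078) or siHNF4A 2 (0.185; range 0.0113 to 0.185). SMURF1 was no longer called without control 2 (0.0945), siHNF4A 1 (0.155) or siHNF4A 2 (0.0562; range 0.0141 to 0.179).

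Of 9 genes that respond to TGF-β or BMP signals 7 were tested and 1 passed (14.3%, against 14.1% of all tested genes; median log2 fold change -0.378). TGIF1, a SMAD corepressor, fell from 1605 and 1664 to 1299.9 and 1216 normalized counts (adjusted p of 0.0115 in limma), a call that ended without siHNF4A 2 (0.0811, range 0.00691 to 0.146).

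The matrix metalloproteases of the list were low. MMP7, matrilysin, had 29.2 and 30 normalized counts in control cells and 29.7 and 35.5 in the knockdown, with overlap and an adjusted p of 0.827 in limma. MMP14, the membrane-bound collagenase, had between 3.4 and 13.6 and was not tested. Of 17 further proteases and inhibitors 10 were tested and 2 passed (20%, against 14.1% of all tested genes; median log2 fold change 0.036). PLAU, the urokinase that activates plasminogen, rose from 249 and 264 to 401 and 410.4 (log2 fold change 0.66 ± 0.122, standard error; adjusted p of 0.00717 in limma), and ADAM17, which sheds growth factors, fell by 0.26 on the log2 scale (adjusted p of 0.0383 in limma). The PLAU call ended without siHNF4A 2 (0.0519, range 0.00376 to 0.102). The ADAM17 call also ended after quantile normalization (0.0673), without control 2 (0.13), without siHNF4A 1 (0.186) and without siHNF4A 2 (0.1), in a range from 0.0267 to 0.202.

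CD44, the hyaluronan receptor used as a marker of mesenchymal and stem-like states, rose. It had 1077 and 882 normalized counts in the controls, against 1275 and 1488 in the knockdown, 141% of the control mean. This was a log2 fold change of 0.50 ± 0.113 (standard error) with a 95% interval from 0.25 to 0.75 and an adjusted p of 0.0176 in limma. The call ended without siHNF4A 2 (0.12, range 0.000309 to 0.193). The table gives 1 value per gene, so CD44 splice forms, which differ between epithelial and mesenchymal cells, were not distinguished. ESRP1, the epithelial splicing factor that sets them, had 6077 and 5967 in control cells and 7093 and 7272 in the knockdown and rose, with an adjusted p of 0.0135 in limma, a call that ended without either knockdown library (0.0636 and 0.104, range 0.00621 to 0.195).

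Epithelial genes, the counterpart of the mesenchymal program, changed in both directions. Of 22 epithelial identity genes, all tested, 10 passed, 3 higher and 7 lower (45.5%, against 14.1% of all tested genes), with a median log2 fold change of -0.050. CDH1, E-cadherin, had 8196 and 8148 normalized counts in the controls, against 8940.1 and 9136 in the knockdown. Both knockdown libraries were higher, with a log2 fold change of 0.15 ± 0.0517 (standard error) and an adjusted p of 0.0937 in limma. It passed after quantile normalization, at 0.23 and an adjusted p of 0.0196 (range 0.0196 to 0.358).

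Among those that fell, OCLN, the tight junction protein occludin, had 2494 and 2503 normalized counts in control cells and 1606 and 1485 in the knockdown, 61.9% of the control mean (adjusted p of 0.00045 in limma). KRT18 fell from 5981 and 6333 to 4357 and 4296, and its filament partner KRT8 from 15550.5 and 17047 to 11889 and 12352. EPCAM, the epithelial adhesion molecule, fell from 30669 and 30712 to 25123 and 25094, 81.8% of the control mean. The adjusted p in limma was 0.000719 for KRT18, 0.00162 for KRT8 and 0.00286 for EPCAM. KRT8 and KRT18 overlap each other in RefSeq. Outside the rule for named genes, OVOL1, CLDN4 and CLDN7 also fell, with log2 fold changes of -0.52, -0.30 and -0.22. Their adjusted p-values were 0.0124, 0.0278 and 0.0393 in limma, and their calls under the alternatives are not given here. The genes that rose were ESRP1 and, outside the rule for named genes, KRT19 and the epithelial factor GRHL2, with log2 fold changes of 0.22 and 0.37 and adjusted p-values of 0.0192 and 0.00943 in limma. GRHL2 was no longer called without siHNF4A 2 (0.0836, range 0.0054 to 0.157), nor KRT19 without control 1 (0.0521), siHNF4A 1 (0.152) or siHNF4A 2 (0.0814, range 0.00703 to 0.246).

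**Figure D4:**
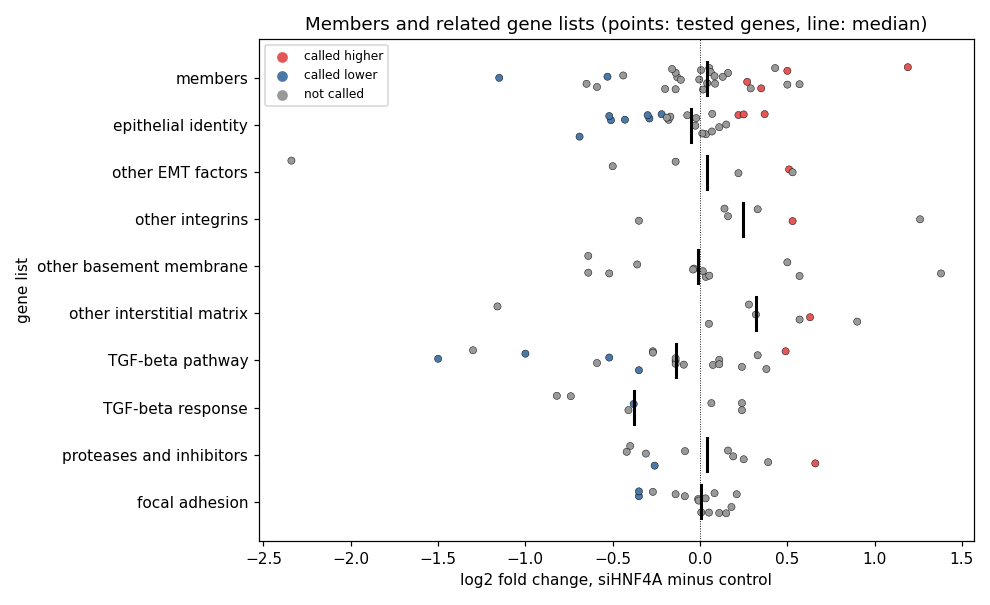
Log2 fold change (siHNF4A minus control, x axis) of the tested genes of the members and of 9 related lists (y axis), with the median as a black line. Red points were called higher, blue lower, grey not called; the medians of the members and of the epithelial identity genes lie at 0.041 and -0.050, and genes on both sides of 0 occur in every list.

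Of 16 genes of focal adhesions, which link integrins to actin, 15 were tested and 2 passed, both lower (13.3%, against 14.1% of all tested genes). They were FERMT1, the epithelial kindlin that activates integrins, from 2291 and 2401 to 1907 and 1767 normalized counts, and PARVA, the α-parvin adaptor, from 1338 and 1380.4 to 1085 and 1048. The adjusted p was 0.0118 and 0.017 in limma. Over the 15 genes the median was 0.007 on the log2 scale. FERMT1 was no longer called without siHNF4A 2 (0.0884, range 0.00619 to 0.159), nor PARVA without siHNF4A 1 (0.0599) or siHNF4A 2 (0.0965, range 0.0111 to 0.147).

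By role, the median log2 fold change was -0.138 over the integrin α chains, 0.039 over the tested β chains, 0.271 over the laminin chains and 0.062 over the TGF-β genes. Over the roles with fewer tested genes it was -0.164 for the interstitial and matricellular genes and -0.022 for the transition factors. It was 0.328 for the type IV collagen chains, 0.314 for the matrix proteases with CD44 and -0.004 for VIM alone. Over the 29 tested members, 20 had no overlap between the groups, 12 with the knockdown higher and 8 with it lower. The groups did not overlap for 57.0% of all tested genes, 26.9% higher and 30.1% lower. For the endothelial and leukocyte markers, the 6 measured genes summed to 30.6 and 21.5 normalized counts in the controls, against 72.8 and 63.2 in the knockdown. VWF, the endothelial von Willebrand factor, accounted for most of this difference in the sums: it had 8.55 and 6.68 in control cells and 47.5 and 36.4 in the knockdown. Its control mean of 7.62 lies under the filter, so it was tested only through its knockdown values and no test is given. The 5 other markers summed to 22.1 and 14.8 in the controls, against 25.3 and 26.8 in the knockdown, so both knockdown sums were higher without VWF too. Their part in the members' values was not tested.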

How the data were processed

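RNA-seq of 4 ESO26 libraries was used. RNA was extracted with RNeasy Mini columns for standard Illumina libraries, per the labels' protocols. The deposited table gives a normalized count per gene symbol, a signal value whose counting program, annotation and normalization are not given in the sources used here. The build hg19 and the tools Trim Galore, Bowtie, Bowtie2, Picard and MACS2 are named, without a role, per the submitters' processing notes. Of a library's values above 0 and under 50, only 20.7% to 46.5% were multiples of 0.5 times its most frequent low value (tolerance 2% of that step), so reads per gene could not be recovered and count models were not used. The series' text mentions triplicates; the labels and the table hold 2 libraries per group.

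Genes with a mean of at least 10 were compared with limma 3.58.1 in R 4.3.3 (eBayes with trend, no block) on log2(normalized count + 1). The fit was tested on simulated data. Same-numbered libraries did not deviate together (Pearson correlation -0.0192 over 15577 genes, and 0.0563 over 10918 genes averaging 100 or more), and numbers were therefore not used to pair libraries. The members and the gene lists were chosen with earlier results of these data known. Genes named are HNF4A, all members, up to 4 called genes per other list with the smallest p, and CDH1, EPCAM and ESRP1. Others, apart from the cell type markers, are marked as outside this rule or as chosen after seeing the data. CCN1 and CCN2 were matched by their older symbols. Alternatives varied the pseudocount (0.5 or 5), the filter (none or 50), the scaling, the trend, the block and each library. Peak lists and 4C libraries were not used here.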

Additional observations from a re-analysis of the deposited data

How the results depend on the processing

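The count of called genes, 2202, was 726 without the filter on low values, where 30247 genes were tested in place of 15577. It was 0 without the variance trend, where 3524 genes had an unadjusted p under 0.05. Without the filter 0 members were called higher and 1 lower, and without the trend 0 and 0. HNF4A kept its log2 fold change of -1.97 without the trend but was no longer past the threshold (adjusted p of 0.0919 in limma, range 1.14e-11 to 0.0919). Leaving out each library in turn, where the lone library is assumed to vary like the others, gave 1013 (without siHNF4A 2) to 2449 called genes, 1 to 5 members higher, 1 to 3 lower, and a median of the members between 0.016 and 0.069. In those fits HNF4A lay between -2.11 and -1.82. Signs changed for ZEB1 after quantile normalization (-0.027) and, over the fits without 1 library, for ZEB1 (-0.45 to 0.62), VIM (-0.14 to 0.13), ITGA1 (-0.051 to 0.16), ITGA3 (-0.49 to 0.22), ITGB1 (-0.01 to 0.044), LAMA5 (-0.099 to 0.11) and TGFBI (-1.64 to 0.47), with a call at -1.64 alone. Quantile normalization split the calls into 1031 higher and 1027 lower, against 938 and 1264. With the replicate block 2428 genes were called, and 5 members were higher and 2 lower: ITGB6 was gained (adjusted p of 0.0398 in limma). Among the named genes, OVOL1, CLDN4 and CLDN7 not included, the block changed no other call. Of 408 values of 52 named genes under alternatives with all 4 libraries, 355 kept their direction and their side of the threshold, 46 lost the call, 6 gained one and 1 changed sign. The causes were not tested. Genes with few counts, among them SNAI1, ZEB1, VIM and TGFB1, have wide intervals, so changes within them were not detectable here.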
